A study of Danio rerio with 6 samples.

Results

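Loci that each span 200 kb or more of the zebrafish genome were examined in RNA sequencing of embryonic hearts. A locus is the stretch of chromosome that the authors' deposited table gives for a feature, and its width is the end coordinate minus the start. A feature was kept when its locus was at least 200000 bp wide, when no other listed feature had the same coordinates, and when the larger of its 2 expression values lay from 1 to below 1000 FPKM (sequenced fragments scaled for transcript length and for library size). Features on chromosome 4 starting at 30000000 or beyond were left out. These limits gave 264 loci among the 16383 listed features, and among the 12198 listed features that met the same limits at any width. The loci were thus chosen by their coordinates and by their FPKM in both groups, and what follows describes these values without a test.

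The hearts came from embryos injected with a morpholino against tnnt2a, called morphants here, and from wild-type embryos, all at 54 hours post fertilisation (hpf). Each of the 2 groups had 3 libraries, and each library was made from total RNA of about 100 pooled hearts with a stranded kit. The morpholino was given at 1 ng per embryo at the 1-cell stage. The labels describe no control injection for the wild-type embryos and name no strain, so effects of injection and of the loss of tnnt2a cannot be told apart. The deposited columns are called sih and control, and they were read as morphants and wild type because sih abbreviates silent heart, the mutant of tnnt2a, and the series has no other group.

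The gene tnnt2a encodes cardiac troponin T, a part of the thin filament through which calcium controls contraction of heart muscle, and embryos that lack it have hearts that do not beat. A morpholino is a synthetic oligomer that pairs with RNA and can block its translation or splicing. The oligomer is shown because it is the treatment that separates the groups. It is 25 bases long, and the capitals mark the letters complementary to an ATG triplet, read 5′ to 3′.

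tnnt2a morpholino: CATgtttgctctgatctgacacgca

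In vertebrates a gene that spans a very long stretch does so mainly through its introns, and RNA polymerase has to copy the whole stretch before the transcript is complete. Very long genes are known to include many that encode cell adhesion molecules, ion channels, synaptic proteins and large proteins of the muscle cytoskeleton such as dystrophin. Locus width is therefore not the length of the mature transcript, to which FPKM is scaled. The features here carry assembly identifiers and no gene names, so which genes the 264 loci hold, and where their exons, introns and untranslated regions lie, is not analysed here.

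The deposited table holds 1 FPKM value per feature and group, merged by the authors over the 3 libraries. There is no value per library, so no spread between replicates can be given and sequencing depth is unknown. The only test across libraries is the authors' own, and a locus is said to be called, to have risen or to have fallen where the q-value of the authors' deposited table is below 0.05. Recomputed with Benjamini-Hochberg adjustment over 19969 features, every listed q-value came out within 1%. The 3586 features not listed are those with p-values above 0.767, and they are missing from every count below. Their widths, folds and directions are unknown. Tissue identity and the level of tnnt2a were not checked, since both need gene names. In bulk hearts, fewer cells of a type and less RNA per cell cannot be told apart.

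The 264 very long loci were moderately abundant. Their median level was 6.72 FPKM in morphants (quartiles 2.71 and 16.2 FPKM) and 6.87 FPKM in wild type (quartiles 2.86 and 17.6 FPKM). The 3240 loci of 20 to 50 kb under the same limits had medians of 8.43 FPKM in morphants and 8.30 FPKM in wild type. Set by the larger of the 2 values, 85 of the very long loci (32.2%) lay below 5 FPKM, 112 (42.4%) from 5 to below 20 FPKM, 60 (22.7%) from 20 to below 100 FPKM and 7 at 100 FPKM or more. The corresponding shares of the 20 to 50 kb loci were 28.4%, 44.1%, 23.6% and 3.92%. The most abundant very long locus reached 357 FPKM, so that the upper limit of 1000 FPKM removed none. No very long locus among the 264 was listed at 0 in either group.

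**Figure D1:**
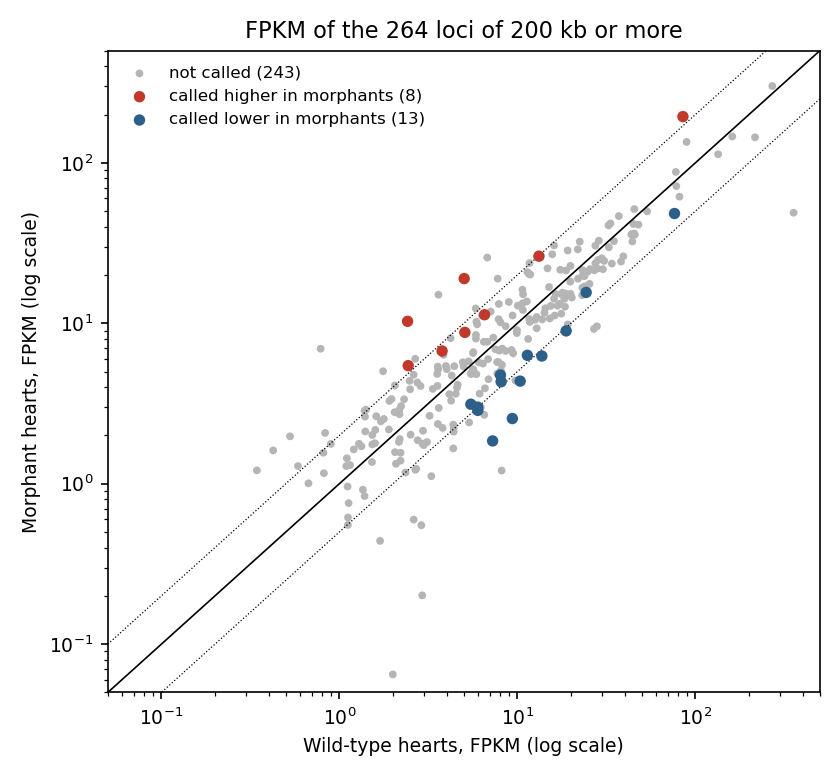
FPKM in morphant hearts (vertical axis) against FPKM in wild-type hearts (horizontal axis), both on log scales, for the 264 loci of 200 kb or more; each point is 1 locus, the solid line marks equal values and the dotted lines a 2-fold difference. Of the loci, 116 lie above the line of equal values and 148 below it, and the 21 called loci (8 higher and 13 lower in morphants) all reach at least 5 FPKM in 1 group.

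More of the very long loci were lower than higher in morphants. Of the 264, 116 (43.9%) had the larger value in morphants and 148 (56.1%) the larger value in wild type. Among all listed features 52.2% were higher in morphants, and among all loci under 200 kb that met the other limits the share was 53.0%. The median log2 fold, morphant over wild type, was -0.16 for the very long loci (quartiles -0.51 and 0.46), against 0.12 for the loci under 200 kb (quartiles -0.37 and 0.51) and 0.13 for all listed features. Left out of these medians, because they were listed at 0 in a group, were 252 of the loci under 200 kb and 847 of all listed features.

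Few listed loci had folds near 0. Just 1 of the 264 very long loci had a log2 fold smaller than 0.1 in size, and 3.53% of the loci under 200 kb did. That 1 locus, XLOC_018972, had a log2 fold of -0.09 and p = 0.762 in the authors' deposited table. Features with p-values above 0.767 are not listed, and their folds are unknown. Whether the gap near 0 comes from their absence was not tested. A median close to 0 moves from one side of this gap to the other with a small change in the share of loci that are higher. Shares of loci are therefore given beside the medians of the folds.

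Loci of 20 to 50 kb were then compared at matched abundance. Each of these loci was weighted so that its share in every band of the larger FPKM value, 1 log2 unit wide, equalled that of the very long loci. Of the 3240 loci 3232 entered with a weight, and the other 8 lay in bands that hold no very long locus. The 30 loci of 20 to 50 kb listed at 0 in a group count in the shares but not in the medians of the log2 fold. So weighted, 51.0% of the 20 to 50 kb loci were higher in morphants, against 43.9% of the very long loci, a difference of -7.02 percentage points. The medians of the log2 fold were -0.16 for the very long loci and 0.08 for the weighted 20 to 50 kb loci, a difference of -0.24. These medians lay on opposite sides of the gap near 0. The quartiles lay closer together. They were -0.51 and 0.46 for the very long loci, and -0.40 and 0.48 for the weighted loci. The difference in medians is therefore not the size of a shift of all folds. It shrank to -0.05 against weighted loci of 50 to 100 kb, and likewise to -0.05 against weighted loci of 100 to 200 kb. The weighted medians of both these sets were below 0, at -0.10 and -0.11. Matching on abundance moved the differences from the 20 to 50 kb loci little, since without it they were -6.59 percentage points and -0.23. No test was made of the difference, because loci are not replicates and the table has 1 value per group.

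The difference in direction was seen in both tails of the folds. At least 2-fold higher values in morphants were found for 19 very long loci (7.20%), against 10.5% of the weighted 20 to 50 kb loci. At least 2-fold lower values were found for 26 very long loci (9.85%), against 6.81% of the weighted 20 to 50 kb loci. Taken without direction, 17.0% of the very long loci and 17.3% of the weighted 20 to 50 kb loci differed at least 2-fold. The 30 loci of 20 to 50 kb listed at 0 in a group have no log2 fold and are counted here as not 2-fold. The 2-fold shares of that set are therefore lower bounds. Among loci with a log2 fold the interquartile ranges over all bands of abundance were 0.96 and 0.87 on the log2 scale. Neither likeness held in every band. From 1 to below 5 FPKM, 22.4% of the very long loci and 32.6% of the 20 to 50 kb loci differed at least 2-fold. From 5 to below 20 FPKM it was 17.9% and 11.8%. The interquartile ranges were 1.15 and 1.87 from 1 to below 2 FPKM, and 1.04 and 0.74 from 8 to below 16 FPKM.

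**Figure D2:**
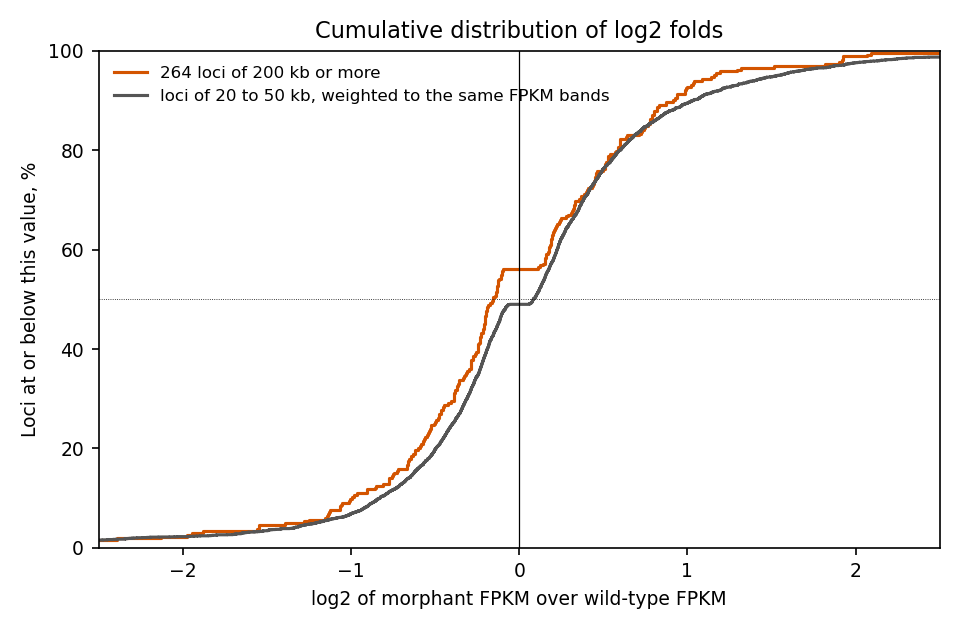
Cumulative percentage of loci (vertical axis) at or below each log2 fold of morphant over wild-type FPKM (horizontal axis) for the 264 loci of 200 kb or more and for the loci of 20 to 50 kb weighted to the same FPKM bands. Both curves are flat around 0, and at 0 the curve of the very long loci stands at 56.1% while that of the 20 to 50 kb loci stands near 49.0%. Loci listed at 0 in a group have no log2 fold and are not drawn.

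The very long loci lay at the end of a gradient of width and were close to the widths next to them. Among loci of 2 to 5 kb 58.2% were higher in morphants, and among those of 5 to 10 kb 57.8%. The share was 54.8% from 10 to 20 kb, 50.5% from 20 to 50 kb, 47.1% from 50 to 100 kb and 47.0% from 100 to 200 kb. Among the very long loci it was 45.6% from 200 to 300 kb (82 of 180) and 40.5% at 300 kb or more (34 of 84). Loci under 2 kb did not follow this order, with 53.5% higher in morphants. Weighted to the abundance of the very long loci, the loci of 50 to 100 kb had 47.8% higher in morphants, which left a difference of -3.83 percentage points. The loci of 100 to 200 kb had 48.0%, which left -4.08 percentage points.

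**Figure D3:**
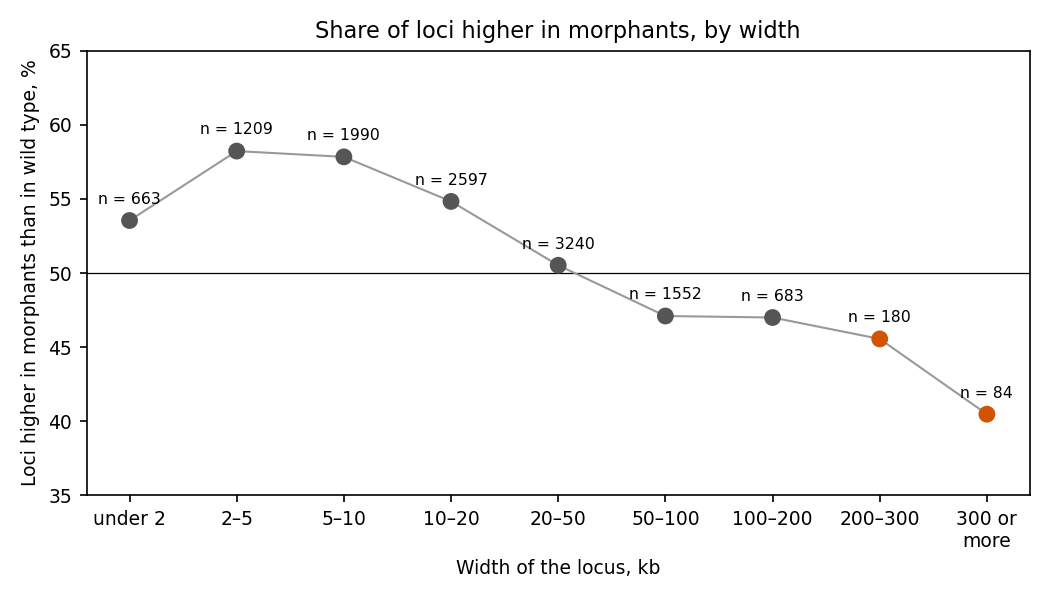
Percentage of loci with the larger FPKM in morphants (vertical axis) by locus width in kb (horizontal axis, narrow to wide); grey points are loci under 200 kb, orange points the very long loci, and n is the number of loci. The share is 58.2% at 2 to 5 kb and 40.5% at 300 kb or more, and the line marks 50%.

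Abundance changed the picture for the weakest of the very long loci. From 1 to below 2 FPKM, 16 of 25 very long loci (64%) were higher in morphants, against 52.7% of the 330 loci of 20 to 50 kb in that band. In each doubling of FPKM from 2 to 64, and in the merged band from 64 FPKM, the share was below 50% for the very long loci. It was also below that of the 20 to 50 kb loci in each of these bands. From 16 to below 32 FPKM 20 of 57 very long loci (35.1%) were higher in morphants, against 51.7% of 576 loci of 20 to 50 kb. From 32 to below 64 FPKM it was 6 of 19 (31.6%), against 47.7% of 310. Among loci of at least 64 FPKM the 20 to 50 kb loci also leaned lower, with 41.7% of 218 higher in morphants, beside 4 of 11 very long loci (36.4%). At 100 FPKM or more the order was the other way, with 3 of 7 very long loci higher (42.9%), against 41.7% of 127.

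**Figure D4:**
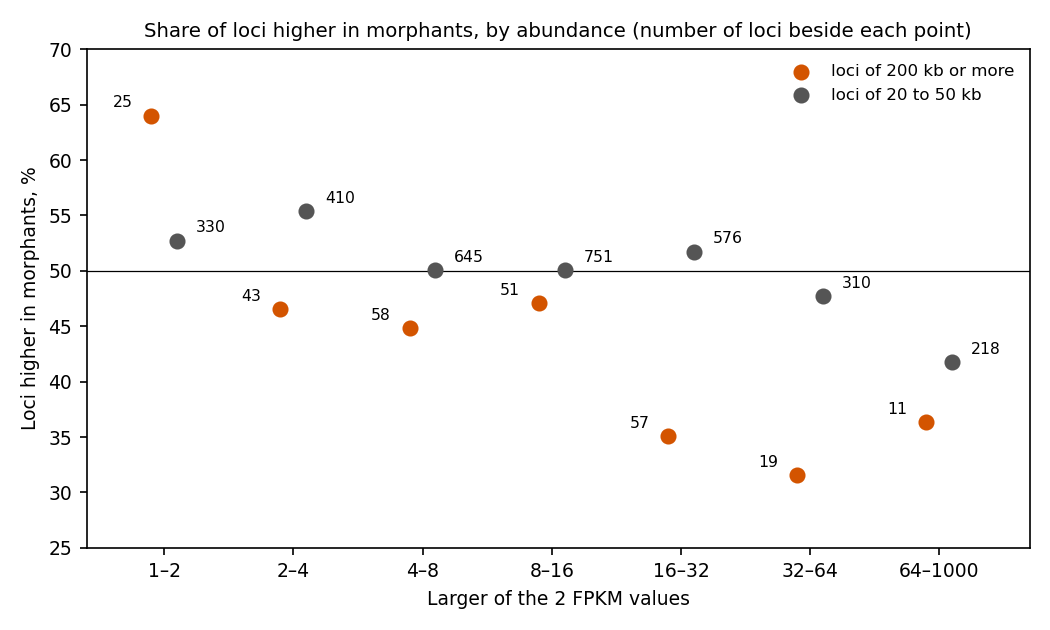
Percentage of loci with the larger FPKM in morphants (vertical axis) in bands of the larger of the 2 FPKM values (horizontal axis, low to high) for loci of 200 kb or more (orange) and of 20 to 50 kb (grey), with the number of loci beside each point. The very long loci stand at 64% in the lowest band, with 25 loci, and between 31.6% and 47.1% in all other bands.

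Within the very long loci, the widest were the least abundant and the most often lower in morphants. The 119 loci from 200 to below 250 kb had a median of 8.78 FPKM in morphants and 8.11 FPKM in wild type, and 58 of them (48.7%) were higher in morphants. Of the 61 loci from 250 to below 300 kb, 24 (39.3%) were higher in morphants, and of the 58 from 300 to below 400 kb, 26 (44.8%). The 26 loci of 400 kb or more had medians of 2.02 FPKM in morphants and 2.80 FPKM in wild type, and 8 of them (30.8%) were higher in morphants. These last 26 held 1 called locus (3.85%). Beside this stood 6.23% of all listed features and 6.9% of the listed features that met the same limits at any width. Nothing is read from this count. Abundance and width move together here, and their separate parts were not tested.

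The 5 widest loci were all weakly expressed and none was called. XLOC_015159 on chromosome 21 (27599592 to 28304282), 704690 bp wide, stood at 1.39 FPKM in morphants and 2.21 FPKM in wild type. XLOC_028835 on chromosome 8 (15271164 to 15955814) stood at 3.28 FPKM in morphants and 1.91 FPKM in wild type, and was the only one of the 5 with the larger value in morphants. XLOC_011521 on chromosome 19 (44528044 to 45206345) stood at 0.616 FPKM in morphants and 1.12 FPKM in wild type. The other two lay at 626459 and 559511 bp. XLOC_001675 on chromosome 10 (30077177 to 30703636) stood at 0.201 FPKM in morphants and 2.92 FPKM in wild type, and XLOC_005584 on chromosome 14 (28860294 to 29419805) at 0.837 FPKM in morphants and 1.39 FPKM in wild type. Their q-values in the authors' deposited table ran from 0.216 to 0.638.

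Of the 264 very long loci, 21 were called in the authors' deposited table (7.95%), against 6.23% of all listed features and 6.9% of the listed features that met the same limits at any width. Of the 21, 8 rose in morphants (3.03%), beside 3.33% of all listed features and 3.89% of those under the same limits. The other 13 fell (4.92%), beside 2.91% of all listed features and 3.02% of those under the same limits. More falls than rises were also called in the widths next to them. Of 683 loci of 100 to 200 kb 17 rose and 36 fell (7.76% called). Of 1552 loci of 50 to 100 kb 55 rose and 63 fell (7.60% called). With the p-values of the authors' deposited table left unadjusted and a limit of 0.05, 25 very long loci were higher (9.47%, beside 9.8% of all listed features) and 33 lower (12.5%, beside 8.03%). Since FPKM values of the same comparison chose the loci, nothing is read from these shares.

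The share called differed between bands of abundance. None of the 85 very long loci below 5 FPKM was called in the authors' deposited table. Beside them were 29 of 919 loci of 20 to 50 kb and 3.71% of all loci under 200 kb with the same limits. From 5 to below 20 FPKM, 17 of 112 very long loci were called (15.2%). The shares there were 6.79% of the 20 to 50 kb loci and 6.36% of all loci under 200 kb. From 20 to below 100 FPKM 3 of 60 were called (5.00%), beside 9.53% and 10.2%. As above, nothing is read from these shares. All but 2 of the 21 called loci had a larger value under 32 FPKM.

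The 8 loci that rose lay on 8 different chromosomes and had a median change of 2.10-fold. XLOC_000346 on chromosome 1 (37033112 to 37412637) rose the most, with 10.3 FPKM in morphants against 2.42 FPKM in wild type, 4.26-fold (log2 fold 2.09, q = 0.0167 in the authors' deposited table). XLOC_012525 on chromosome 2 (20167149 to 20462435) stood at 19.0 FPKM in morphants and 5.03 FPKM in wild type, 3.78-fold (log2 fold 1.92, q = 0.00173 in the authors' deposited table). XLOC_026302 on chromosome 6 (30864624 to 31160341) was by far the most abundant called locus, with 194 FPKM in morphants against 85.1 FPKM in wild type, 2.28-fold (log2 fold 1.19, q = 0.00173 in the authors' deposited table). These 3 span between 295286 and 379525 bp, in the wider part of the called loci.

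XLOC_027290 on chromosome 7 (60992891 to 61221595) stood at 5.44 FPKM in morphants and 2.44 FPKM in wild type, 2.23-fold. XLOC_014949 on chromosome 21 (9639180 to 9863301) stood at 26.2 FPKM in morphants and 13.2 FPKM in wild type, 1.98-fold, with the smallest q-value of the authors' deposited table, 0.00173. That value is shared by the 577 listed features at the smallest p-value, 9 of them very long loci, so it does not rank them. The remaining 3 rises were smaller and of like size. XLOC_007232 on chromosome 15 (39431052 to 39755758) rose 1.78-fold, to 6.72 FPKM in morphants against 3.78 FPKM in wild type. XLOC_013545 on chromosome 20 (41123943 to 41345528) rose 1.73-fold, to 8.78 FPKM in morphants against 5.07 FPKM in wild type. XLOC_010794 on chromosome 19 (26839366 to 27044894) also rose 1.73-fold, to 11.3 FPKM in morphants against 6.54 FPKM in wild type. The q-values of these 3 in the authors' deposited table lay between 0.0146 and 0.0220, and that of XLOC_027290 was 0.0359, so that 5 of the 8 rises did not hold at a q-value below 0.01.

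The 13 loci that fell lay on 11 chromosomes and had a median change of 1.99-fold. XLOC_004536 on chromosome 13 (19753684 to 20217313) fell the most, to 1.85 FPKM in morphants against 7.26 FPKM in wild type, 3.93-fold (log2 fold -1.97, q = 0.00173 in the authors' deposited table). At 463629 bp it was also the widest of all called loci. XLOC_027521 on chromosome 7 (12136904 to 12475862), 338958 bp wide, stood at 2.55 FPKM in morphants and 9.37 FPKM in wild type, 3.68-fold lower (log2 fold -1.88, q = 0.00173 in the authors' deposited table). After these came a group of 4 loci with falls between 2.09-fold and 2.38-fold. XLOC_009405 on chromosome 17 (36679513 to 36894549) stood at 4.36 FPKM in morphants and 10.4 FPKM in wild type. XLOC_019661 on chromosome 3 (34876221 to 35121017) stood at 6.25 FPKM in morphants and 13.7 FPKM in wild type. XLOC_020534, also on chromosome 3 (40837138 to 41150481), stood at 8.97 FPKM in morphants and 18.8 FPKM in wild type. These 3 were among the features that share the smallest q-value of the authors' deposited table. XLOC_003252 on chromosome 11 (29083967 to 29316263), with 2.87 FPKM in morphants and 5.99 FPKM in wild type, had q = 0.0335 there.

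The other 7 falls were under 2-fold. XLOC_000919 on chromosome 1 (22252811 to 22466844) stood at 3.002 FPKM in morphants and 5.99 FPKM in wild type, with the weakest q-value of all 21 in the authors' deposited table, 0.0448. XLOC_006586 on chromosome 15 (32139380 to 32339894) stood at 4.32 FPKM in morphants and 8.11 FPKM in wild type (q = 0.00173 in the authors' deposited table). At 200514 bp it lay just inside the width limit. XLOC_029314 on chromosome 9 (4188187 to 4467522) stood at 6.32 FPKM in morphants and 11.4 FPKM in wild type. XLOC_002455 on chromosome 11 (5313255 to 5520525) stood at 3.13 FPKM in morphants and 5.48 FPKM in wild type, and XLOC_017635 on chromosome 24 (18804245 to 19062637) at 4.76 FPKM in morphants and 8.04 FPKM in wild type. The smallest falls belonged to the 2 most abundant loci that fell. XLOC_003691 on chromosome 12 (27612654 to 27975985) fell 1.58-fold, to 48.3 FPKM in morphants against 76.4 FPKM in wild type. XLOC_026343 on chromosome 6 (35116513 to 35326841) fell 1.56-fold, to 15.6 FPKM in morphants against 24.4 FPKM in wild type.

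**Figure D5:**
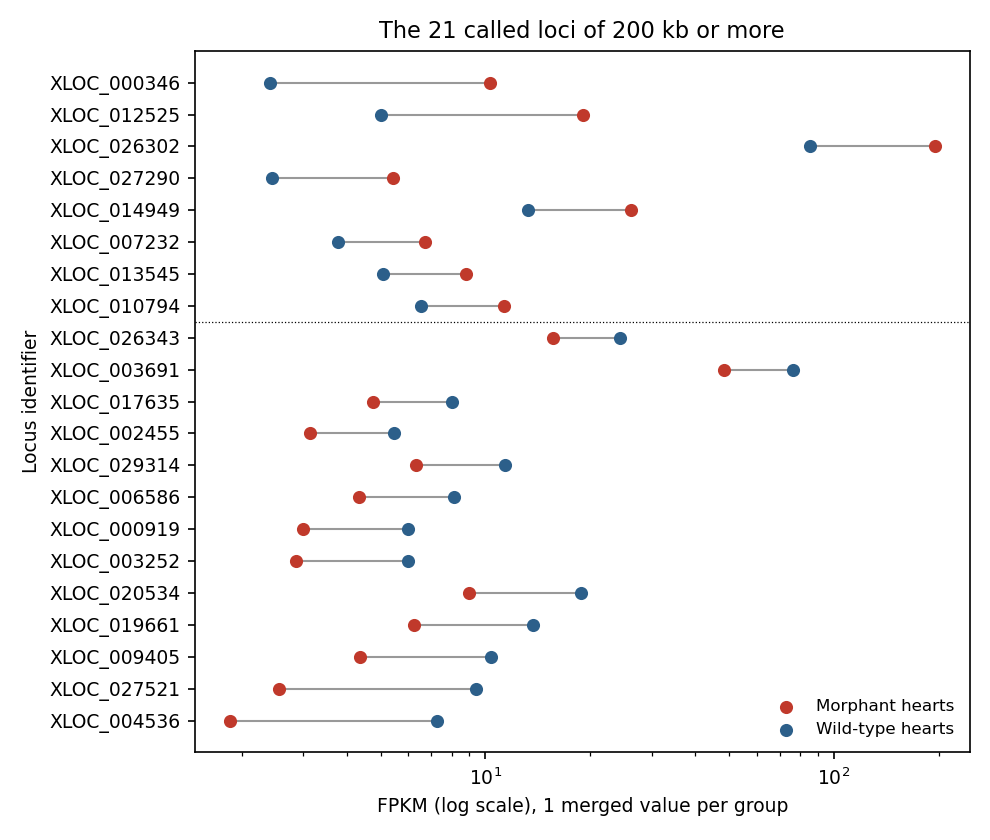
FPKM on a log scale (horizontal axis) of the 21 called loci of 200 kb or more, 1 row per locus identifier, with morphant hearts in red and wild-type hearts in blue; each point is the value the authors merged over the libraries of a group. The 8 loci above the dotted line rose, by 1.73-fold to 4.26-fold, and the 13 below it fell, by 1.56-fold to 3.93-fold.

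Several of the largest differences were not called. Of the 45 very long loci that differed at least 2-fold, 10 were called (22.2%) and 35 were not. Among loci under 200 kb with the same limits, 22.2% of those differing at least 2-fold were called too. Among all listed features it was 14.9%. Features listed at 0 in a group have no log2 fold and are not among those counted as 2-fold here. Of the 35 very long loci not called, 19 were below 5 FPKM in both groups. The largest fold of all was that of XLOC_000997 on chromosome 1 (30331010 to 30546217), at 0.0647 FPKM in morphants and 1.996 FPKM in wild type (q = 0.478 in the authors' deposited table). XLOC_001675, described above among the widest loci, stood 14.5-fold lower in morphants (q = 0.638 in the authors' deposited table). In the other direction, XLOC_024530 on chromosome 5 (11783401 to 12025118) had 6.94 FPKM in morphants and 0.785 FPKM in wild type, 8.84-fold higher (q = 0.441 in the authors' deposited table). How far the replicates differed on these loci is unknown.

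The most abundant very long locus was among them. XLOC_008867 on chromosome 17 (31788811 to 32068137) had 48.9 FPKM in morphants and 357 FPKM in wild type, 7.29-fold lower, and the authors' deposited table gives it q = 0.673. It carried most of the difference in summed level. The 264 loci summed to 4004 FPKM in morphants and 4382 FPKM in wild type, a ratio of 0.914. Without this locus the sums were 3955 FPKM in morphants and 4026 FPKM in wild type, a ratio of 0.982, beside 1.03 for all listed features. The sums over all listed features carry no limit on FPKM, shared coordinates or chromosome 4, so these ratios come from unlike sets.

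The next most abundant loci differed less, apart from the called XLOC_026302. XLOC_024709 on chromosome 5 (25662974 to 25966282) had 301 FPKM in morphants and 271 FPKM in wild type (q = 0.878 in the authors' deposited table). XLOC_009822 on chromosome 18 (27118773 to 27323729) had 144 FPKM in morphants and 216 FPKM in wild type, 1.50-fold lower (q = 0.0836 in the authors' deposited table). XLOC_008833 on chromosome 17 (27528218 to 27797172) had 146 FPKM in morphants and 161 FPKM in wild type (q = 0.891 in the authors' deposited table).

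Very long loci were found on all 25 chromosomes. They made up 2.16% of the listed features under the same limits, between 0.966% on chromosome 22 and 3.63% on chromosome 11. More loci were lower than higher in morphants on 13 chromosomes, more were higher on 7, and the numbers were equal on 5. Chromosomes 14 and 18 leaned furthest to lower values, with 12 of 13 and 6 of 6 loci lower in morphants. Chromosomes 8, 20 and 11 leaned furthest the other way, with 6 of 8, 9 of 13 and 10 of 15 loci higher. Shares for narrower loci on the same chromosomes are not given, so nothing is read from these counts. No chromosome had more than 2 called loci, and 15 chromosomes had at least 1.

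The very long loci had wider gaps to their neighbours on the chromosome than the loci of 20 to 50 kb. None of the 14944 distinct loci of the table overlapped another, so a unique locus holds no other listed feature. The median gap to the nearest listed locus was 14330 bp for the very long loci and 4345 bp for the loci of 20 to 50 kb. Of 55 pairs of successive very long loci less than 1000000 bp apart, 27 had the same direction, 14 of them both higher and 13 both lower in morphants. No such pair held 2 calls.

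Most features on very wide loci were not among the 264. Of 811 listed features with a locus of 200 kb or more, 496 (61.2%) shared their coordinates with another listed feature, against 12.1% of features on narrower loci. A further 46 lay below 1 FPKM in both groups, and 5 lay on the far part of chromosome 4. None of the 46 was called, beside 6.23% of all listed features, and nothing is read from this count. Under the same other limits, 400 features remained on shared coordinates of 200 kb or more, at 110 distinct places. Of these 400, 221 (55.3%) were higher in morphants, against 43.9% of the 264 with their own coordinates. On shared coordinates of 20 to 50 kb the share was 55.7%. The lean to lower values was thus not seen in features that share a very wide locus. Their listed width may be that of the whole shared stretch and not of 1 feature, which was not tested. Coordinates could be compared among listed features only. Some of the 264 loci may therefore be shared with features among the 3586 not listed, and their width may then also be that of a shared stretch. Of these 400 features 3 rose and 6 fell in the authors' deposited table, 2.25% in all, beside 3.25% on shared coordinates of 20 to 50 kb and 6.23% of all listed features.

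The loci next to the limits are given as a description. Just inside the width limit, XLOC_002192 at 200000 bp had 5.42 FPKM in morphants and 3.97 FPKM in wild type, next to the called XLOC_006586. Just outside it, XLOC_018614 at 199837 bp had 14.1 FPKM in morphants and 16.4 FPKM in wild type, and XLOC_025613 at 199846 bp had 27.4 FPKM in morphants and 38.7 FPKM in wild type. At the lower FPKM limit, XLOC_020487, with 1.01 FPKM in morphants and 0.671 FPKM in wild type, and XLOC_018040, with 0.960 FPKM in morphants and 1.11 FPKM in wild type, were the last kept. XLOC_020578, with 0.998 FPKM in morphants and 0.545 FPKM in wild type, and XLOC_025823, with 0.972 FPKM in morphants and 0.494 FPKM in wild type, were the first left out.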

How the data were processed

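Hearts of tnnt2a morphant and wild-type embryos were sequenced, with 3 libraries per group. Per the submitters' processing notes, the genome build was GRCz10 and the tools included STAR 2.5.0c, Cufflinks 2.2.1, Cuffdiff, Trim Galore 0.4.1 and cutadapt 1.9.1, with FastQC 0.11.4 and bcl2fastq. Not given in the sources used here are each tool's role, the annotation, the use of strand in counting and the scaling between libraries. For every feature the authors deposited 1 merged FPKM value per group, a p-value and a q-value. Coordinates are printed as that table gives them.

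Folds were recomputed as log2 of morphant over wild-type FPKM with no pseudocount, since the deposited fold column holds spreadsheet error cells. The comparison by abundance weighted the loci of 20 to 50 kb by bands of the larger FPKM, in which 3232 of 3240 had a weight. The weighting was also run on simulated data with a known shift. Recovery of that shift was required there only for bands of the mean FPKM, and no simulated features were left out by p-value. That run therefore does not show how well the comparison reported here performs. Named loci are every called one, the 5 widest, the 5 most abundant, the 3 uncalled with the largest folds and those next to the limits. The loci, limits and comparisons were chosen with earlier results of these data known. Python 3.11.15, numpy 2.4.6, pandas 2.3.3, scipy 1.17.1 and matplotlib 3.10.9 were used. Alternatives changed the width limit, FPKM limit, comparison loci, matching, pseudocount, centring and call rule.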

Additional observations from a re-analysis of the deposited data

How the results depend on the processing

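For 8 results 69 alternative values were computed. The direction of the median log2 fold reversed under 1 setting, keeping features on shared coordinates (0.14, with 50.8% of 664 features higher in morphants). A width minimum of 500000 bp left 8 loci and gave 12.5% higher, a median log2 fold of -0.70, a difference in share of -41.1 percentage points and median levels of 1.11 FPKM in morphants and 2.55 FPKM in wild type. A minimum of 300000 bp gave a median log2 fold of -0.26 and median levels of 4.83 FPKM in morphants and 4.54 FPKM in wild type. Centring folds on the median of the listed features from 1 FPKM, 0.12, gave a median of -0.28. Against loci of 5000 to 20000 bp the difference in median log2 fold was -0.32. It shrank to -0.05 against loci of 50000 to 100000 bp and to -0.05 against loci of 100000 to 200000 bp, a comparison chosen after the data were seen. The other alternatives for this difference gave -0.28 to -0.23. The difference in share was -12.1 percentage points against loci of 5000 to 20000 bp and -2.90 with a width minimum of 150000 bp. FPKM minimums fix the levels by construction: from 5 FPKM the medians were 12.4 FPKM in morphants and 11.7 FPKM in wild type, from 20 FPKM they were 26.2 FPKM in morphants and 28.2 FPKM in wild type, and with no minimum 5.37 FPKM in morphants and 5.65 FPKM in wild type.

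Calls were 3 higher and 6 lower at a q-value below 0.01, and 10 higher and 20 lower at a q-value below 0.1. There were 25 higher and 33 lower at an unadjusted p-value below 0.05, beside 9.8% and 8.03% of all listed features. Calls were 4 higher and 6 lower with a minimum of 2-fold, and 2 higher and 2 lower from 20 FPKM. Apart from the unadjusted limit, shares of all listed features are not given for these rules, so nothing is read from the counts. No paired analysis was possible because the table gives only merged values per group, and leaving out a replicate was not run for the same reason. The alternative that leaves out overlapping loci was not run, since no listed loci overlap. Without known depth, no detection limit could be computed.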
